A study of Mus musculus with 10 samples.

Results

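The libraries described here are the 6 that came from mice bearing an OS5K tumour, out of 10 in the series, divided by their level of Ltf, so the members were chosen by a measured value. Ltf encodes lactoferrin, an iron-binding protein of neutrophil granules. Libraries with at least 50 RPKM of Ltf are called Ltf-high and those under 50 RPKM Ltf-low, which gave 3 libraries on each side and 1 of each side in every OS5K line. RPKM is the number of reads in a gene scaled to the length of its model in kilobases and to the read total of the library in units of 1e+06 reads. In the Ltf-high libraries Ltf stood at 129 RPKM in OS5K #1 replicate 1, 84.7 in OS5K #2 replicate 2 and 105 in OS5K #3 replicate 1. In the Ltf-low libraries it stood at 28.0 RPKM in OS5K #1 replicate 2, 22.9 in OS5K #2 replicate 1 and 20.47 in OS5K #3 replicate 2. The threshold therefore lay in a gap between 28.0 and 84.7 RPKM. Since a measured value chose the sides, the differences between them are descriptions of these 6 libraries, given without a test, and Ltf is left out of every count.

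All mice were BALB/c nu/nu, a strain without a functional thymus, and blood was taken 14 days after cells of a human clear cell renal cell carcinoma or vehicle had been placed in the kidney. The injected cells were the OS-RC-2 derivatives named OS5K #1, #2 and #3 for the 6 libraries divided here, OSPa for 2 further libraries, and vehicle (sham) for 2 more. OSPa was read as the parental line. CD11b+ Ly-6G+ cells, the surface phenotype of mouse neutrophils, were sorted, and polyadenylated RNA was amplified with SMART-Seq v4. The labels do not say whether the 2 libraries of a group came from separate animals, from pooled animals or from 1 sample, so differences within a line may be technical. The side of a library follows neither the line nor the replicate number of the labels.

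Neutrophils build their granules in sequence while they mature in the bone marrow. Azurophil (primary) granules with myeloperoxidase and elastase come first, specific (secondary) granules with lactoferrin and cathelicidin next, and gelatinase (tertiary) granules last. Transcripts of granule proteins are made mostly in the precursor that packs them and decline before the cell enters blood, under transcription factors that include C/EBP-epsilon, so residual granule transcripts in blood are commonly used as a sign of younger neutrophils. Platelets also carry RNA, inherited from megakaryocytes, and can adhere to neutrophils in blood.

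The Ltf-high libraries held between 15176051 and 15514537 reads and the Ltf-low ones between 13765576 and 14484734, as worked out from the RPKM values, so depth did not overlap between the sides. Its part in the differences was not tested. RPKM is scaled to the library total, and over all tested genes the median difference between the sides was 0.07 on the log2 scale. Adult hemoglobin genes (Hba-a1, Hba-a2, Hbb-bs and Hbb-bt) took 4.39% to 9.52% of the reads in the Ltf-high and 3.46% to 5.16% of the reads of the Ltf-low libraries. Of the neutrophil genes fixed for description, several overlapped between the sides and Csf3r, described further on, did not. S100a9, a subunit of calprotectin, ranged from 38323 to 46971 RPKM over the 6 libraries, Cxcr2, the receptor for neutrophil-attracting chemokines, from 710 to 820, and Ly6g, which encodes the sorted Ly-6G antigen, from 52.7 to 101. For each of these genes the sides overlapped, and they overlapped also for Itgam, which encodes CD11b (35.4 to 68.2 RPKM).

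Camp, Ngp and Chil3 were the members of the secondary granule list that were separated with Ltf. Camp, Ngp and Ltf lie close together on chromosome 9, whereas Chil3 lies on chromosome 3. In mm10 Camp (ENSMUSG00000038357) occupies chromosome 9 from 109847379 to 109849617 on the minus strand, Ngp (ENSMUSG00000032484) from 110419747 to 110423012 on the plus strand, and Ltf (ENSMUSG00000032496) from 111019271 to 111042767 on the plus strand. The interval of 1.20 Mb that spans them held 8 other tested genes, of which 5 were higher in the Ltf-high libraries and none was separated. Their differences ran from -0.26 to 0.27 on the log2 scale. The stretches before Ltf, Ngp and Camp are shown because these genes are neighbours and stood together. They are RefSeq sequences of build GRCm38.p6, written 5′ to 3′ on the strand of the gene, and run from 250 bases before the RefSeq start up to the gene model of the deposited table. Capitals mark the letters TTGCNNAA or, on the other strand, TTNNGCAA, a core of the motif bound by C/EBP factors.
Ltf, chr9:111019042-111019270: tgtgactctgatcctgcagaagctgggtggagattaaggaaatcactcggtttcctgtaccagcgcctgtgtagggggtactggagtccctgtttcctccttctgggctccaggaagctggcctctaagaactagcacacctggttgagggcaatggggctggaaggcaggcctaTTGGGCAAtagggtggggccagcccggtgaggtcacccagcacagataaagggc
Ngp, chr9:110419558-110419746: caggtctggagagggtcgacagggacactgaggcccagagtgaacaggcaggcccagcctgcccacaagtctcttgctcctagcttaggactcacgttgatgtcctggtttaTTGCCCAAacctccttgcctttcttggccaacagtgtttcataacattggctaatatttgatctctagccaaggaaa
Camp, chr9:109849618-109849706: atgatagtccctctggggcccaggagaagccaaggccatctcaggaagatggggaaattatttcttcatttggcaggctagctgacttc
Over the full 250 bases before the RefSeq start, Ngp held 2 matches, Ltf 1 and Camp 0. Such a match was present in 9.55% of the 27025 promoters of the same length. Among the genes separated by at least 2-fold, described further on, 1 of 5 higher in the Ltf-high libraries (Ngp) and 1 of 9 with a promoter entry among the 17 higher in the Ltf-low libraries (Mest) held a match. A match describes the letters and is no evidence that a factor binds there.

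Camp, which encodes the cathelicidin antimicrobial peptide of specific granules, stood at 149, 90.1 and 155 RPKM in the Ltf-high libraries of OS5K #1, #2 and #3, and at 39.9, 28.6 and 28.6 RPKM in the Ltf-low libraries of the same lines. The sides did not overlap, and every line showed the same order. The mean was 132 ± 36.0 RPKM against 32.4 ± 6.55 (SD, n = 3 each), a log2 difference of 1.97 ± 0.40 (SD over the 3 lines) or 3.91-fold. No other tested gene differed more toward the Ltf-high side.

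Ngp, neutrophilic granule protein, a relative of the cathelicidins stored in specific granules, stood at 579, 374 and 467 RPKM in the Ltf-high libraries and at 184, 142 and 121 RPKM in the Ltf-low libraries of the 3 lines. The log2 difference was 1.66 ± 0.27 (SD, n = 3), or 3.16-fold. Chil3, which encodes the chitinase-like lectin Ym1, was less abundant, with 10.2, 7.15 and 17.1 RPKM against 3.75, 5.41 and 3.74 RPKM. Its sides were close in OS5K #2, where the log2 difference was 0.35, and it differed by 1.24 in OS5K #1 and 1.93 in OS5K #3, a mean of 1.17 ± 0.80 (SD, n = 3). In reads, Camp had between 298 and 1786, Ngp between 2040 and 10817 and Chil3 between 84 and 423 in the 6 libraries.

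**Figure D1:**
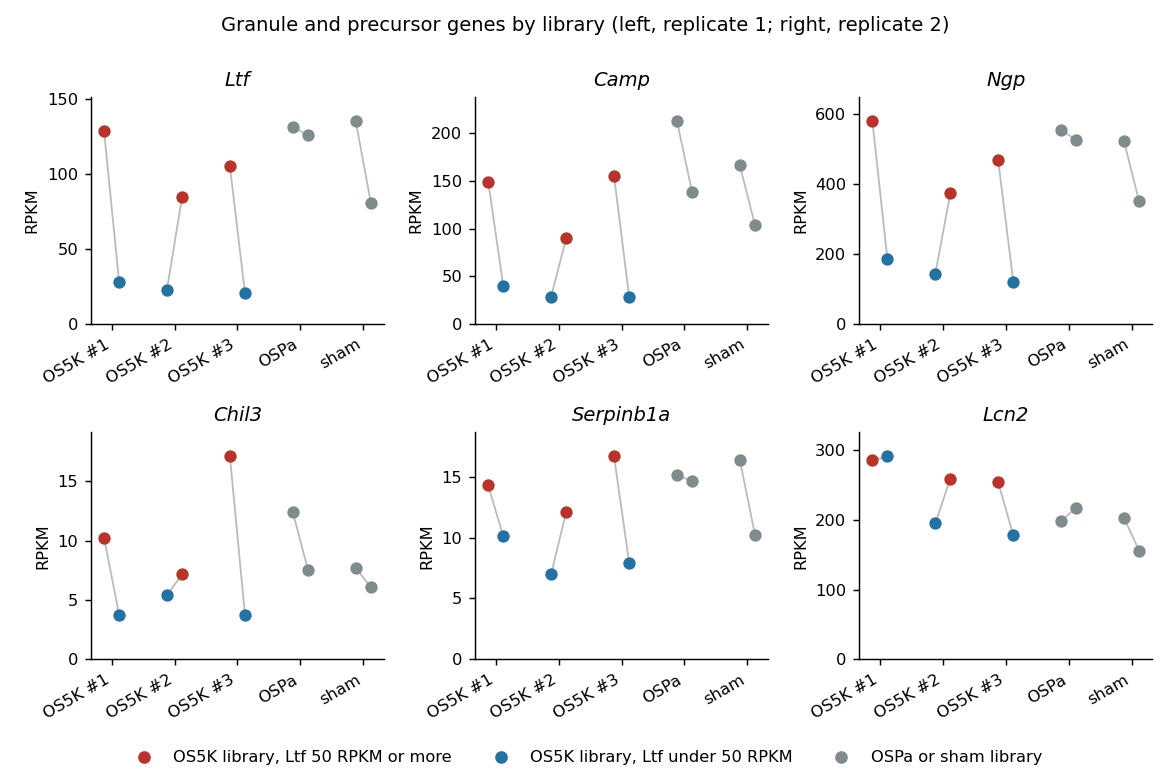
RPKM (vertical axes, from 0) of Ltf, Camp, Ngp, Chil3, Serpinb1a and Lcn2 in each of the 10 libraries, 1 point a library, with a grey line joining the 2 libraries of a group. Red points are OS5K libraries with Ltf of at least 50 RPKM, blue points those under 50 RPKM and grey points OSPa and sham; for Camp the blue points lie between 28.6 and 39.9 RPKM and the red ones between 90.1 and 155, while for Lcn2 the colours overlap.

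A gene was called separated when the 3 libraries of 1 side all lay above the 3 of the other on the scale of log2(RPKM + 1) and the side means differed by at least 1 on that scale, that is 2-fold. No test is read from the resulting counts. Of 8038 tested genes other than Ltf, 22 were separated (0.274%), 5 of them higher in the Ltf-high libraries (0.0622%) and 17 higher in the Ltf-low libraries (0.211%). With 1 library or line left out the count ran from 17 to 65, with 4 to 14 on the Ltf-high and 6 to 58 on the Ltf-low side. The highest total came without OS5K #1 replicate 2 and the lowest without OS5K #1 replicate 1. Without OS5K #3 replicate 1 the mean differences of Chil3 and Pde2a were 0.87 and 0.91, below 2-fold. Non-overlap alone was common, in 1910 genes (23.8%), with 1312 genes higher in the Ltf-high (16.3%) and 598 higher in the Ltf-low libraries (7.44%), so most of those differences were below 2-fold. The order was the same in all 3 lines for 2685 genes toward the Ltf-high (33.4%) and 1349 toward the Ltf-low side (16.8%). A mean difference of at least 2-fold was reached by 23 genes (0.286%), 18 of them toward the Ltf-low side (0.224%), and the 1 that overlapped was Hba-a2. A limma model with the line as a block called 413 genes at a Benjamini-Hochberg adjusted p under 0.05 (5.14%), 225 higher on the Ltf-high (2.8%) and 188 on the Ltf-low side (2.34%). After each library was centred on its median, 67 of the called genes were on the Ltf-high and 208 on the Ltf-low side, and after quantile normalization 56 and 226. These counts describe how many genes went with the split and are not a test of it. The count was 48 with both OS5K #3 libraries left out, and to 4 with the OSPa and sham libraries added to the fit.

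**Figure D2:**
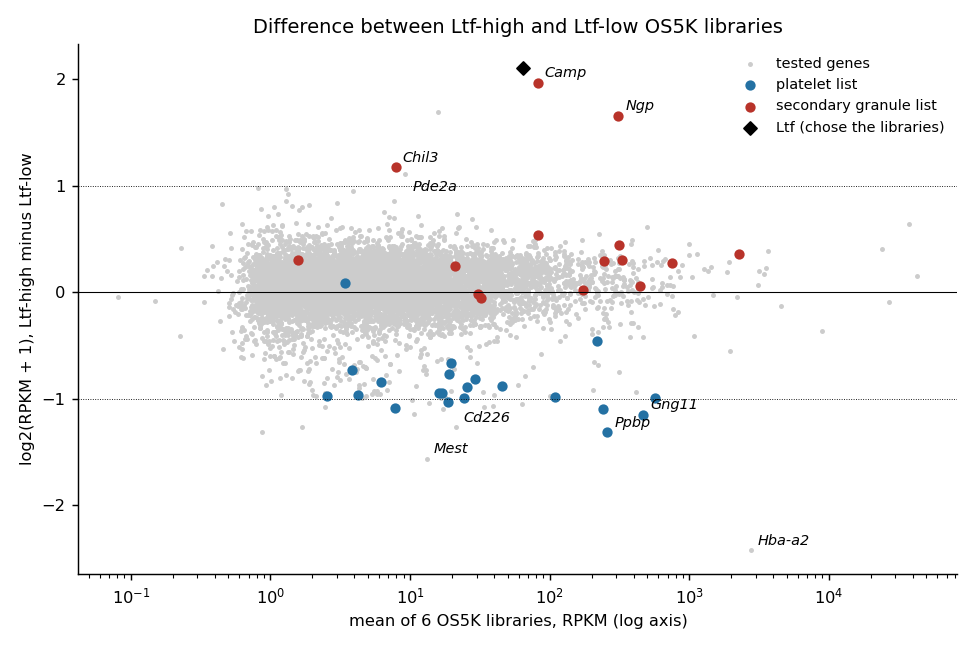
Log2 difference between the mean of the Ltf-high and the mean of the Ltf-low OS5K libraries (vertical axis, log2(RPKM + 1)) against the mean RPKM of the 6 libraries (horizontal log axis), 1 point a tested gene, with the platelet list in blue, the secondary granule list in red and Ltf as a black diamond. Dotted lines mark 2-fold; Camp at 1.97 and Ngp at 1.66 lie at the top, and 20 of the 21 platelet list members lie below 0. Hba-a2 at the bottom is not separated, since its libraries overlap.

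The other genes separated toward the Ltf-high side were Pde2a, which encodes a phosphodiesterase that cleaves cyclic AMP and cyclic GMP, and Gm11127, a predicted gene outside the naming rule. Pde2a stood at 11.8, 10.3 and 16.9 RPKM in the Ltf-high libraries and at 4.39, 6.67 and 5.31 RPKM in the Ltf-low ones, a log2 difference of 1.11 ± 0.49 (SD, n = 3). Gm11127 lies on chromosome 17 and stood at 21.2, 28.4 and 23.7 RPKM against 7.56, 10.2 and 4.0 RPKM.

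Differences over the rest of the secondary granule list were smaller. Of its 16 members 15 were tested, and Bpi was at 0 in all 6 libraries. Of these 15, 13 were higher in the Ltf-high libraries, 9 without overlap and 3 (Camp, Ngp and Chil3) separated, with a median log2 difference of 0.30. Over all tested genes 62.5% were higher on that side, 16.3% without overlap and 0.0622% separated, with a median of 0.07. Cd177, a surface protein of specific granules, stood at 116, 87.3 and 91.0 RPKM in the Ltf-high and at 81.0, 65.6 and 55.3 in the Ltf-low libraries, a difference of 0.54 ± 0.15 (SD over lines). Cyba, the p22-phox subunit of the NADPH oxidase, differed by 0.44 ± 0.14, and Lyz2, lysozyme, by 0.36 ± 0.18, both without overlap. Hp, haptoglobin, differed by 0.28 ± 0.12, Pglyrp1, a peptidoglycan-binding protein, by 0.30 ± 0.11, and Itgb2l, an integrin-like gene at 0.965 to 2.27 RPKM, by 0.30 ± 0.12, also without overlap.

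Other members of the list overlapped between the sides. Lcn2, lipocalin-2, which binds bacterial siderophores and is stored with lactoferrin, stood at 285, 259 and 254 RPKM in the Ltf-high libraries and at 291, 195 and 178 in the Ltf-low ones. In OS5K #1 its order was thus the opposite of that of Camp. Mmp8, neutrophil collagenase, differed by 0.06 ± 0.05, Cybb, the gp91-phox subunit, by 0.24 ± 0.28, and Chil1 by 0.02 ± 0.23. Olfm4, olfactomedin-4, stood at -0.02 ± 0.37 and Clec5a at -0.05 ± 0.08. Camp and Ngp therefore differed more than 3-fold between libraries in which Mmp8 differed by 0.06 on the log2 scale.

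No tested gene of the other granule classes differed as much as Camp, Ngp or Chil3. Their list medians lay nearer to the 0.30 of the secondary granule list. Of 10 listed genes of primary granules, 4 passed the filter on low values, and 3 of them were higher in the Ltf-high libraries (median 0.21). Over all tested genes 62.5% were higher on that side and 16.3% without overlap, with a median of 0.07. Prss57, a serine protease of azurophil granules, stood at 1.70, 1.61 and 1.55 RPKM against 1.10, 0.753 and 0.920, and Cd63, a membrane protein of these granules, differed by 0.21 ± 0.10. In the tertiary granule list 7 of 8 members were higher on the Ltf-high side (median 0.23) and none was separated. Mmp9, gelatinase B, differed by 0.32 ± 0.12, Padi4, which citrullinates histones, by 0.36 ± 0.12 and Mmp25, a membrane-bound protease, by 0.27 ± 0.12, each without overlap.

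The NADPH oxidase list, the enzyme complex of the respiratory burst, was higher on the Ltf-high side in 7 of 8 members (median 0.29). Over all tested genes the share was 62.5% (median 0.07). Of the 8 members, 4 were without overlap on that side, beside 16.3% of all tested genes. Ncf4, the p40-phox subunit, differed by 0.30 ± 0.02, with 311, 308 and 275 RPKM in the Ltf-high and 248, 251 and 227 in the Ltf-low libraries. Among surface receptors and genes of mature cells, Fpr2, a formyl peptide receptor, differed by 0.44 ± 0.14 and Csf3r, the receptor for G-CSF, by 0.24 ± 0.11, both without overlap. Toward the Ltf-high side, 3 of 10 surface receptors and 5 of 26 genes of mature cells (19.2%) were without overlap, beside 16.3% of all tested genes. In these lists 4 and 6 members were lower in the Ltf-high libraries. Of these only Clec4d, at -0.14 ± 0.11 in the mature list, was without overlap. Retnlg, a resistin-like gene of blood neutrophils, overlapped, with a difference of 0.20 ± 0.39.

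Of 18 tested genes listed for immature neutrophils, 12 (66.7%) were higher in the Ltf-high libraries, 3 of them (16.7%) without overlap, with a median of 0.09. These shares were near those over all tested genes, 62.5% and 16.3%. Serpinb1a, an inhibitor of neutrophil serine proteases, differed most, with 14.3, 12.1 and 16.7 RPKM against 10.1, 6.98 and 7.95, a log2 difference of 0.72 ± 0.26 (SD, n = 3). Cebpe, the gene of C/EBP-epsilon, stood at 4.22, 3.90 and 4.19 RPKM in the Ltf-high and at 2.41, 4.17 and 2.40 in the Ltf-low libraries, so that in OS5K #2 the order turned. Wfdc21 stood at 301, 267 and 391 RPKM in the Ltf-high and at 536, 318 and 444 in the Ltf-low libraries, a difference of -0.42 ± 0.36 with overlap.

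The 10 tested cell cycle genes were divided evenly, 5 toward each side, with a median of 0.05. H2afz, a histone variant, was the only member of that list lower in the Ltf-high libraries without overlap (-0.41 ± 0.18). Among granulopoietic transcription factors, 10 of 16 (62.5%) were higher on the Ltf-high side (median 0.08), beside 62.5% over all tested genes (median 0.07). Spi1, the gene of PU.1, at 0.27 ± 0.09, was the only member without overlap. Members without overlap were thus 6.25% of this list, beside 16.3% of all tested genes on that side.

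On the Ltf-low side the genes with the clearest difference were those of platelets and megakaryocytes. Of 21 tested members of the platelet list, 20 were higher in the Ltf-low libraries, all 20 without overlap against 7.44% of all tested genes. Of them 5 were separated, against 0.211% of all tested genes. The median log2 difference was -0.95, with -0.86, -1.03 and -0.95 within OS5K #1, #2 and #3. The RPKM summed over the list lay between 2215 and 3169 in the Ltf-low libraries and between 1194.5 and 1490.2 in the Ltf-high ones, and no defining marker of the list was at 0. In sorted cells measured in bulk, fewer cells of a type and less RNA per cell cannot be told apart.

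Ppbp, which encodes the platelet basic protein that is processed to the chemokine CXCL7, stood at 147, 157 and 136 RPKM in the Ltf-high libraries and at 294, 403 and 418 RPKM in the Ltf-low libraries of OS5K #1, #2 and #3. The log2 difference was -1.32 ± 0.31 (SD, n = 3), 2.49-fold higher on the Ltf-low side. Ppbp (ENSMUSG00000029372) lies on chromosome 5 from 90768518 to 90770063 in mm10. Every Ltf-low value was above every Ltf-high value.

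Gng11, a G-protein gamma subunit abundant in platelets, stood at 234, 311 and 322 RPKM against 491, 701 and 753, a log2 difference of -1.15 ± 0.08. Nrgn, the calmodulin-binding protein neurogranin, stood at 115, 174 and 173 RPKM against 253, 376 and 364, and its difference of -1.10 ± 0.03 was nearly equal in the 3 lines. Clec1b, the podoplanin receptor CLEC-2 of platelets, differed by -1.03 ± 0.04. Over the lines the SD was thus at most 0.08 for each of these 3 genes, but 0.31 for Ppbp. On the other side it was 0.27 for Ngp, 0.40 for Camp and 0.80 for Chil3.

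**Figure D3:**
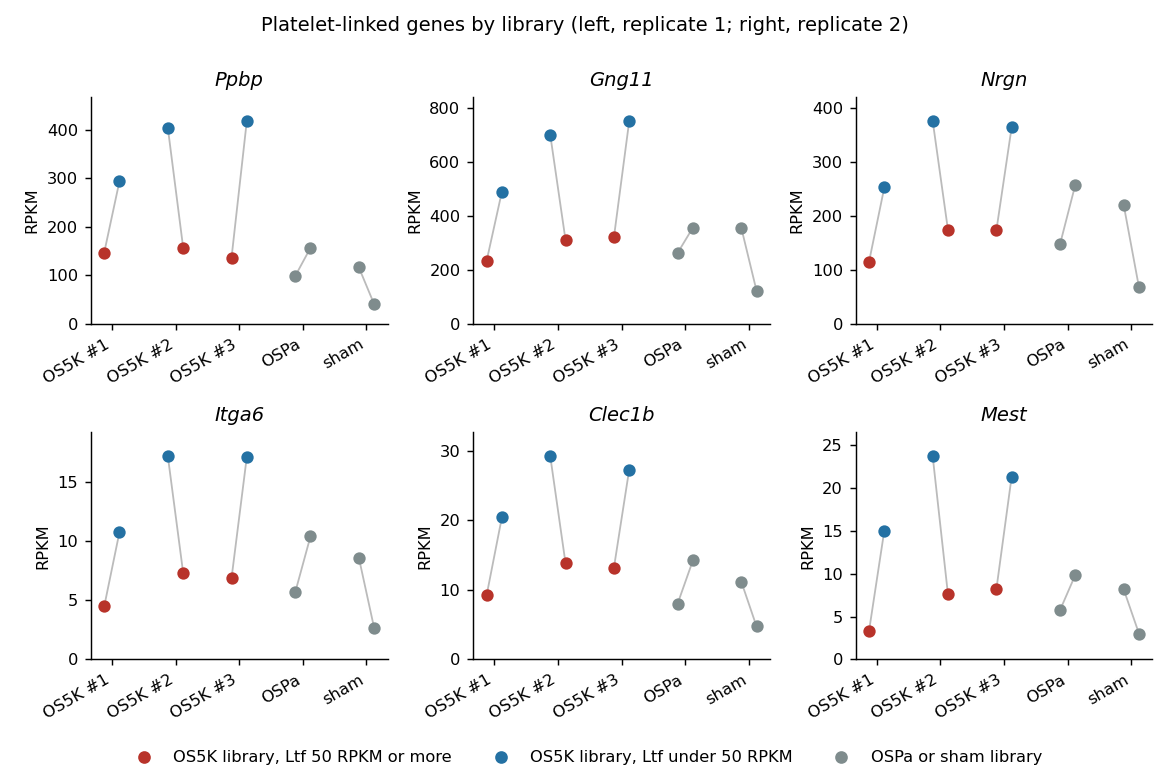
RPKM (vertical axes, from 0) of Ppbp, Gng11, Nrgn, Itga6, Clec1b and Mest in each of the 10 libraries, 1 point a library, with a grey line joining the 2 libraries of a group and colours for the Ltf side as given in the legend. In each panel the 3 blue Ltf-low points lie above the 3 red Ltf-high points, whereas in sham the library with more Ltf has the higher point, with Ppbp at 117 against 41.0 RPKM.

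Other members of the list, named after their values were seen, went the same way by less than 1 on the scale of log2(RPKM + 1). Pf4, platelet factor 4, stood at 335, 392 and 405 RPKM in the Ltf-high and at 589, 854 and 841 in the Ltf-low libraries. Gp9 and Itga2b, which encode subunits of the receptors for von Willebrand factor and fibrinogen, differed by -0.88 ± 0.15 and -0.82 ± 0.11. Selp, P-selectin, was the exception among the 21 members, at 0.09 ± 0.41.

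Of the 17 genes separated toward the Ltf-low side, 5 belonged to the platelet list. Mest, an imprinted gene of the alpha/beta hydrolase family, had the largest difference among them, with 3.34, 7.58 and 8.18 RPKM in the Ltf-high and 15.04, 23.7 and 21.3 in the Ltf-low libraries (log2 difference -1.56 ± 0.31). Cd226, an adhesion receptor found on platelets as well as lymphocytes, differed by -1.27 ± 0.29, and Itga6, the laminin-binding integrin alpha-6, by -1.14 ± 0.05. Sh3bgrl2 (-1.10 ± 0.06), Mmd (-1.08 ± 0.11), Lsm12 (-1.07 ± 0.17), S100a10, the partner of annexin A2 (-1.05 ± 0.03), Fhl1, a LIM-domain protein (-1.04 ± 0.06), and Tsc22d1 (-1.01 ± 0.17) completed those with a mean of at least 5 RPKM. The remaining 3, Gm13568, Gm21982 and Lancl3, were below that mean. F13a1, coagulation factor XIII A, fixed here as a monocyte gene but also expressed in platelets, differed by -0.98 ± 0.12 without overlap.

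Markers of other blood cells did not divide the libraries in this way. Of 17 tested erythroid markers 14 were higher in the Ltf-high libraries (median 0.33), beside 62.5% of all tested genes, and none was without overlap. The median was 0.76, -0.14 and 0.39 in OS5K #1, #2 and #3. The summed erythroid level ran from 57229 to 122307 RPKM in the Ltf-high and from 45301 to 66375 in the Ltf-low libraries. Hba-a2 had a log2 difference of -2.42 ± 3.86, with 63.9, 4875 and 33.7 RPKM against 54.9, 7569 and 3991. It is a near-identical copy of Hba-a1, and how the counting divided reads among these copies is uncertain.

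Monocyte markers were higher on the Ltf-high side in 17 of 22 members (median 0.12), with summed levels of 335 to 432 RPKM against 308 to 451. Ly6c2, a surface antigen of inflammatory monocytes, differed by 0.41 ± 0.04 without overlap. Of the monocyte list 77.3% were higher on that side and 9.09% without overlap, beside 62.5% and 16.3% of all tested genes. B-cell and MHC class II markers were higher in 16 of 17 members (median 0.29), beside 62.5% of all tested genes, and 1 of them (5.88%) was without overlap, beside 16.3%, with sums of 215 to 340 against 121 to 304 RPKM. T and NK cell markers (3 of 6 higher, sums of 28.4 to 35.4 against 21.1 to 34.9 RPKM) and eosinophil and basophil markers (2 of 3 higher, sums of 15.03 to 26.2 against 14.4 to 23.01) overlapped. Dendritic markers had 1 tested member. The medians of the monocyte, T and NK cell and eosinophil and basophil lists changed sign when some of the libraries were left out. Among the markers of these other cells, Prg2 and Ear1 were at 0 in all 6 libraries.

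Interferon-induced genes lay slightly to the Ltf-high side. Of 41 type I interferon genes 36 (87.8%) were higher there (median 0.14), beside 62.5% of all tested genes (median 0.07). Only 4 of them (9.76%) were without overlap, beside 16.3% of all tested genes. With libraries or lines left out, the median of this list ran from 0.01 to 0.27. Ifit3, an antiviral RNA-binding protein, differed by 0.47 ± 0.25 and Oasl1 by 0.42 ± 0.07, the latter without overlap. Of 16 genes listed for interferon-gamma 14 (87.5%) were higher (median 0.20) and 4 (25.0%) without overlap, among these Psmb10 at 0.46 ± 0.34. Of 73 ribosomal protein genes 65 lay toward the Ltf-high side (median 0.23), as did 56 of 68 genes of mitochondrial respiration (median 0.17) and 30 of 33 proteasome subunits (median 0.17), each beside 62.5% and a median of 0.07 over all tested genes. None of these members was separated. Toward the Ltf-high side, 23.3% of the ribosomal, 38.2% of the mitochondrial and 27.3% of the proteasome genes were without overlap. Over all tested genes this share was 16.3%.

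Over the remaining lists the counts were as follows, beside 62.5% and a median of 0.07 over all tested genes. Glycolysis and hypoxia genes were higher in 18 of 24 members (median 0.13), genes of the response to STAT3 and G-CSF in 11 of 16 (0.14), immediate early genes in 13 of 21 (0.13), genes of circulating mature neutrophils in 20 of 26 (0.12), surface receptors of secretory vesicles in 6 of 10 (0.12), glucocorticoid-responsive genes in 6 of 10 (0.09) and genes of the translocon of the endoplasmic reticulum in 17 of 25 (0.08). Stefin A genes, inhibitors of cysteine proteases that are close copies of each other and thus uncertain, were lower in the Ltf-high libraries in 6 of 7 members (median -0.23), opposite to the direction of most tested genes, and none was without overlap.

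The 4 OSPa and sham libraries were not used to define the sides. Within sham, Ltf stood at 135 RPKM in replicate 1 and 80.9 in replicate 2, a log2 difference of 0.73, and within OSPa at 132 and 126 RPKM, a difference of 0.07. All 4 values were therefore above those of the Ltf-low OS5K libraries. Camp was at 166 and 104 RPKM in sham and 213 and 138 in OSPa, and Ngp at 522 and 350 in sham and 555 and 524 in OSPa, so that in both pairs Camp and Ngp were higher in the library with more Ltf. Of the 5 genes separated toward the Ltf-high side, 5 were higher in that library of the sham pair (median 0.57), beside 5259 of 8038 tested genes (65.4%), and 3 in that of the OSPa pair, beside 4175 of 8038 (51.9%).

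The platelet genes did not keep their relation to Ltf in sham. All 21 tested members of the platelet list were higher in sham replicate 1, the library with more Ltf, with a median log2 difference of 1.60, against -0.95 in the OS5K pairs. Ppbp stood at 117 RPKM there and at 41.0 in replicate 2, and the summed platelet level was 1548 against 627 RPKM. In the OSPa pair 1 of 21 members was higher in the library with more Ltf (median -0.80), although Ltf itself was nearly equal in that pair. Of the 17 genes separated toward the Ltf-low side, 16 were higher in the sham library with more Ltf and 2 in the OSPa library with more Ltf. These differences between pairs were not tested.

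Interferon-gamma genes also went opposite ways. All 16 tested members were lower in the sham library with more Ltf (median -1.28) and in the OSPa library with more Ltf (median -0.77), against a median of 0.20 in the OS5K pairs. Of 41 type I interferon genes, 4 were higher in that library of sham (median -0.48) and 5 in that of OSPa (median -0.36). Their median in the OS5K pairs was 0.14. Over all tested genes 65.4% were higher in that library of sham and 51.9% in that of OSPa. Psmb10, an immunoproteasome subunit, stood at 7.46 and 16.1 RPKM in sham replicates 1 and 2 and at 5.05 and 8.25 RPKM in those of OSPa, beside 3.18 to 7.73 RPKM over the 6 OS5K libraries. Its order within a pair thus differed between the groups in which Camp kept its order.

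**Figure D4:**
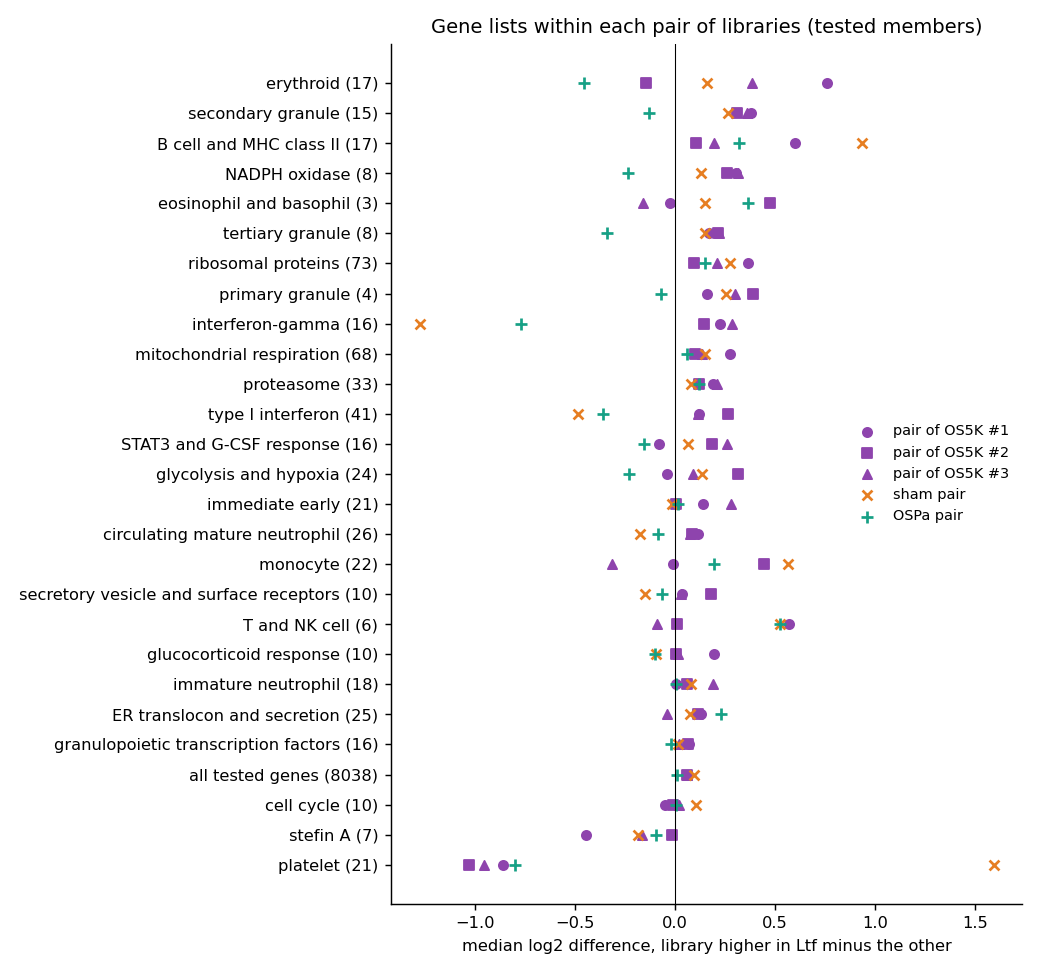
Median log2 difference of each gene list (rows, number of tested members in brackets) between the library with more Ltf and the other library of the same pair, for the 3 OS5K lines (purple), sham (orange crosses) and OSPa (green plus signs). The platelet list lies between -1.03 and -0.86 in the OS5K pairs, at -0.80 in OSPa and at 1.60 in sham, and the interferon-gamma list lies above 0 in the OS5K pairs and below 0 in both others.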

How the data were processed

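Sorted blood neutrophils were measured in 10 libraries. The authors deposited RPKM values, 1 column a library, with mm10 as the build according to the submitters' processing notes. Aligner, counting tool, strand use and handling of multiply matching reads were not given in the sources used here. Read totals were recovered from the RPKM steps with exon lengths of GENCODE M21 (99.9% of identifiers found), and at least 84.5% of values above 0 in each library came out whole within 0.02 reads. A gene was tested where 2 or more of the 10 libraries reached 1 RPKM (8039 genes with Ltf), as log2(RPKM + 1), which understates the change of low genes. Differences are means of the Ltf-high minus means of the Ltf-low libraries, and SD is over the 3 lines. The limma 3.58.1 model (R 4.3.3, trend and robust settings) held line and side, with 2 residual degrees of freedom, and a gene was called at an adjusted p under 0.05.

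Named genes were the up to 15 separated genes of largest difference on each side with a mean of at least 5 RPKM, the secondary granule list, up to 4 members of largest difference in each other list, and Ly6g, Itgam, S100a8, S100a9, Cxcr2, Csf3r and Retnlg. Predicted genes were left out by that rule, and a few genes that it names are not reported here. Members, lists and tests were chosen with earlier results of these data known. Of the listed genes, Ahsp and Aldoa were not analysed here. When 1 library was left out, differences were taken between the means of the remaining libraries of each side. Alternatives were other pseudocounts, filters, scalings, model terms and left-out libraries. The limma model and a rewritten form of the separation rule were run on simulated counts, with results not reported here. The other steps were not run on them.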

Additional observations from a re-analysis of the deposited data

Results flagged for a closer look

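Among 129 values compared over the 6 OS5K libraries, 10 had a library far from the others by Dixon's criterion, which chance alone meets in about 1 of 20 groups. In OS5K #1 replicate 1, an Ltf-high library, 4 of them stood highest. Alas2, the first enzyme of erythroid heme synthesis, was at 998 RPKM there (258 to 458 in the others), Hba-a1 at 72322 (21549 to 37986), Slc4a1, the anion exchanger of red cells, at 29.1 (7.63 to 14.3), and hemoglobin reads at 9.52% (3.46% to 5.16%). In OS5K #1 replicate 2, an Ltf-low library, Dusp1, an immediate early phosphatase, was at 870 RPKM (332 to 433 in the others), Prok2 at 9.87 (2.99 to 4.78) and Stfa2 at 156 (103 to 121), all highest there, while Itgax at 10.85 (17.4 to 19.8) and Psmb5 at 8.98 (14.8 to 17.8) were lowest there. Hvcn1, a proton channel, was highest in OS5K #3 replicate 1 at 3.64 RPKM (1.07 to 1.90).

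The platelet list had a median log2 difference of 1.60 in the sham pair and of -1.03 to -0.86 in the OS5K pairs. The secondary granule list had a median of -0.13 in the OSPa pair, where Ltf was nearly equal, and of 0.31 to 0.38 in the OS5K pairs. These opposite directions were not tested.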

How the results depend on the processing

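No separated gene among those named, and neither the platelet nor the secondary granule median, changed sign under the alternatives run. For a separated gene most of this was fixed in advance, since its sides do not overlap. Left-out libraries and other pseudocounts, filters or model terms could not turn its sign, and only the other scalings could. The sign changed for 18 other named genes, with reported differences of at most 0.42 in size, among them Chil1, Mmp8, Olfm4, Retnlg and Cxcr2. It also changed for the medians of the cell cycle, monocyte, T and NK cell, eosinophil and basophil, glucocorticoid and ER translocon lists. Values of named genes moved beyond the spread over lines in 137 cases and stayed within it in 2025. A pseudocount of 0.1 gave 94 separated genes (27 Ltf-high, 67 Ltf-low) and one of 5 gave 8 (3 and 5), with a platelet median of -0.76. Quantile normalization gave 43 separated genes, 38 Ltf-low, and median centring 38, 33 Ltf-low, with a secondary granule median of 0.26. Non-overlap alone gave 1910 (1312 and 598). The limma count was 31 without a filter, 743 with a filter at 5 RPKM, 275 after median centring, 149 without trend, 16 without the line block (2 Ltf-high, 14 Ltf-low) and 4 with all 10 libraries in the fit. With a replicate block, 3 genes were separated toward the Ltf-high side and limma called 257. The difference between replicates 1 and 2 across genes had r of -0.33, 0.45 and -0.38 between lines. These signs follow which replicate was Ltf-high, so the values cannot show whether replicate numbers pair the lines. Leaving out libraries or lines gave 17 to 65 separated genes, 4 to 14 Ltf-high and 6 to 58 Ltf-low, 48 to 364 limma calls, platelet medians of -1.11 to -0.80 and secondary granule medians of 0.25 to 0.37. Leaving out replicate 2 of OS5K #1 gave 65 separated genes, replicate 2 of OS5K #2 gave 50, and replicate 1 of OS5K #3 gave 44. The Ltf-low count was 6 without OS5K #1 replicate 1. The Ltf-high count was 11 without OS5K #1 replicate 1, OS5K #2 replicate 1 or OS5K #3 replicate 2, and 10 without OS5K #2 replicate 2. When a library of OS5K #3 was left out, limma called 50 (replicate 1) or 48 (replicate 2) genes, and for OS5K #1 it called 232 or 226. The cause of these shifts was not tested. RPKM keep no direct record of counting error, and 3 libraries a side chosen by a measured value limit every statement to these libraries.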
